A study of Arabidopsis thaliana with 24 samples.

Results

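The 40 nuclear genes for photosystem and light-harvesting proteins named by locus (LHCA, LHCB, PSA and PSB) were followed in Arabidopsis thaliana seedlings. All 40 were among the 21407 loci counted and all 40 passed the filter on low counts that left 21015 loci for testing. The antenna holds 17 of them, with 13 LHCB and 4 LHCA genes, and the core and its attached subunits hold 23, with 12 PSA and 11 PSB genes. The groups, all of ecotype Col-0 and 2 weeks old, were seedlings overexpressing the long noncoding RNA ELENA1 (OX) and wild type seedlings (WT). Each genotype was taken without elf18 (0 h) and after 1, 6 and 12 h in liquid medium with 5 µM elf18, the bacterial peptide that the receptor EFR detects, which makes 8 groups of 3 biological replicates. Moving seedlings from agar into liquid, the peptide and the time of day changed together between 0 h and the later times, so they cannot be told apart. The labels give neither the promoter that drives ELENA1 nor the number of independent lines, and the overexpressed locus itself was not analysed here.

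Light is absorbed by chlorophyll bound to antenna proteins and passed to the photosystem cores, where charge is separated. LHCB1, LHCB2 and LHCB3 form the trimers around photosystem II, the minor proteins LHCB4, LHCB5 and LHCB6 link the trimers to the core, and LHCA proteins form the fixed belt of photosystem I. The central reaction centre proteins are encoded in the plastid, so the nuclear PSA and PSB genes supply peripheral, lumenal and small subunits. In leaves these are among the most abundant messages, and LHC genes are known for strong control by light and the circadian clock. In whole seedlings, fewer green cells and less RNA per cell cannot be told apart.

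Total counts per library ran from 18767661 to 85230211. Levels are given as counts scaled to a common library total (CPM) with TMM, a correction for library composition, and fold changes are log2 with their standard error (SE). A gene was called when edgeR's Benjamini-Hochberg adjusted p over all genes tested was under 0.05. The WT 0 h libraries were uneven: the 40 genes took 3.67% of counts in replicate 1, against 5.71 and 6.47% in replicates 2 and 3. The genes called in WT at 1 and 6 h and in the difference in response are therefore also given without replicate 1. Medians of comparisons that use WT 0 h, and the count of genes higher in OX at 0 h, are given only with it. The dependence of counts on transcript length also differed between groups, with log2 slopes from 0.204 to 0.3 in OX 0 h and from -0.396 to -0.156 in OX 1 h, and from 0.174 to 0.276 in WT 0 h and from -0.151 to -0.0716 in WT 1 h. The 40 transcripts have a median length of 1204 bases, against 1714 over all genes tested with a length. The comparisons of 1, 6 and 12 h with 0 h share the 0 h libraries of their genotype.

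The 40 genes together took 5.63 ± 0.61% of all counts in OX at 0 h, 8.01 ± 0.91% at 1 h, 2.65 ± 0.16% at 6 h and 0.855 ± 0.013% at 12 h (SD, n = 3). In WT they took 5.28 ± 1.4%, 6.47 ± 0.72%, 2.24 ± 0.25% and 0.890 ± 0.10% at the same times (SD, n = 3). The mean share was highest at 1 h and lowest at 12 h in both genotypes. In OX every 1 h library lay above every 0 h library, while in WT the 1 h libraries, at 6.37, 5.81 and 7.23%, overlapped those of 0 h. Summed antenna CPM was 32990 ± 4632 in OX at 0 h, 60660 ± 8412 at 1 h, 14800 ± 891 at 6 h and 3436 ± 138 at 12 h (SD, n = 3). In WT the antenna sums were 29690 ± 9615, 49180 ± 6441, 12960 ± 1611 and 3751 ± 755 CPM (SD, n = 3). Summed core CPM was 18570 ± 2095 in OX at 0 h, 30930 ± 3905 at 1 h, 9963 ± 633 at 6 h and 5086 ± 98.19 at 12 h, and in WT it was 16870 ± 3921, 26150 ± 2255, 8647 ± 1001 and 5576 ± 639 CPM (SD, n = 3). Without correction for transcript length, the antenna sum was above the core sum in every library of 0, 1 and 6 h and below it in every library of 12 h.

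**Figure D1:**
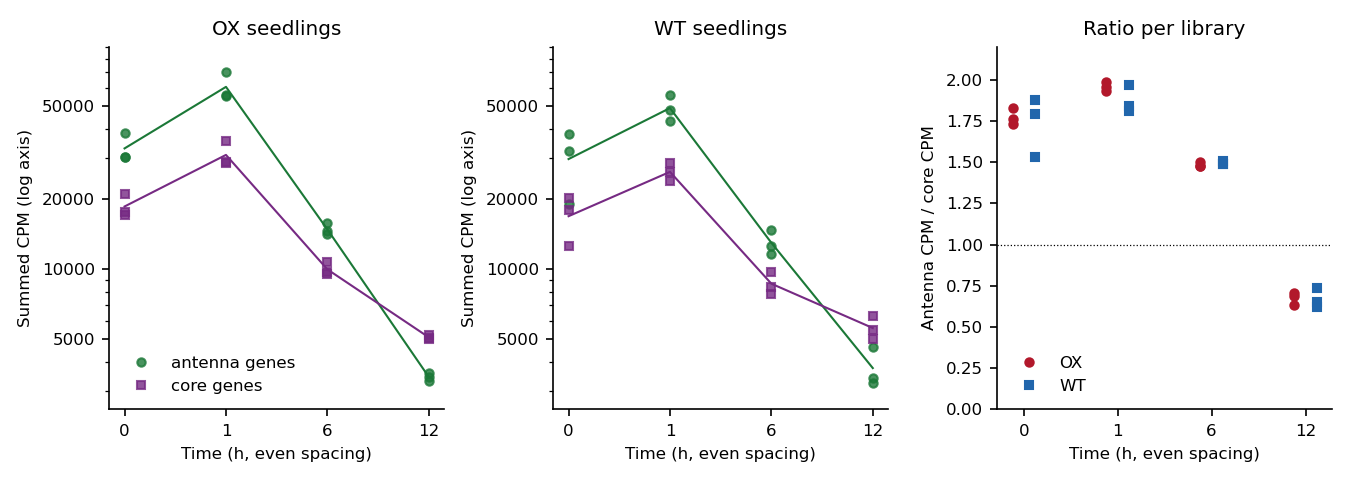
Summed CPM of the 17 antenna and 23 core genes in each library of OX and WT (log axis, points are libraries, lines join group means) and the antenna to core ratio per library. The ratio lies between 1.48 and 1.99 in every library of 0 to 6 h and between 0.618 and 0.738 in every library of 12 h.

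Per library, the ratio of antenna to core CPM was 1.76, 1.73 and 1.83 in OX at 0 h, 1.99, 1.96 and 1.93 at 1 h, 1.48, 1.48 and 1.5 at 6 h and 0.688, 0.634 and 0.705 at 12 h. In WT it was 1.53, 1.79 and 1.88 at 0 h, 1.84, 1.81 and 1.97 at 1 h, 1.49, 1.49 and 1.51 at 6 h and 0.65, 0.618 and 0.738 at 12 h. The 12 h libraries of both genotypes lay below all others, while the low WT 0 h value belonged to replicate 1.

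Levels per kilobase of transcript let genes be compared with one another. LHCB1.3, one of 5 genes for the main trimer protein, stood first in all 8 groups, with 6845 ± 1130 CPM per kb in OX and 5766 ± 1910 CPM per kb in WT at 0 h (SD, n = 3). At 0 h the next places in both genotypes went to LHCB1.5, then PSBR (a small photosystem II subunit), LHCB1.2 and LHCA4 (a photosystem I antenna protein). LHCB1.2 and LHCA4 differed by less than their spread at 0 h in both genotypes, with 1867 ± 305 and 1770 ± 188 CPM per kb in OX and 1892 ± 704 and 1605 ± 478 CPM per kb in WT (SD, n = 3). PSBR, at 2180 ± 228 CPM per kb in OX and 2067 ± 583 CPM per kb in WT, differed from LHCB1.2 by less than the spread in WT and by slightly more in OX. At 12 h the order below LHCB1.3 was PSBR, PSBO-1 (the manganese-stabilizing protein of oxygen evolution), PSAL (a photosystem I subunit at the docking face for trimers) and PSBP-1 (a lumenal subunit of oxygen evolution) in both genotypes. At 12 h these stood at 585.9 ± 11.7, 414.2 ± 16.5, 354.2 ± 15.6 and 330.7 ± 6.15 CPM per kb in OX, behind LHCB1.3 at 939.2 ± 45.5 (SD, n = 3). In WT at 12 h they stood at 736.9 ± 97.9, 449.7 ± 61.4, 386.8 ± 42.2 and 379.8 ± 48.1 CPM per kb, behind LHCB1.3 at 1057 ± 294 (SD, n = 3), and PSAL and PSBP-1 differed there by less than their spread. LHCB2.4, a minor LHCB2 gene, was the lowest of the 40 over the groups, at a mean of 46.1 CPM per kb.

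At 1 h most of the 40 genes had a higher level than at 0 h. In OX 35 rose and 0 fell, where 35.2% of all genes tested rose and 33.7% fell. In WT 31 rose and 0 fell, where 35.2% rose and 32.6% fell. The median log2 fold change was 0.74 in OX and 0.60 in WT, against 0.01 over all genes tested in each. In OX 15 of 17 antenna genes rose with a median of 0.86 and 20 of 23 core genes rose with a median of 0.71. In WT 12 of 17 antenna genes rose with a median of 0.58 and 19 of 23 core genes rose with a median of 0.61. DESeq2 called 35 of the 40 in OX and 32 in WT, where it called 14344 and 14100 of all 21015 genes in either direction.

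The correction for transcript length reduced these counts. With it, 22 genes were higher and 2 lower at 1 h in OX, with a median of 0.39, where 30.2% of all genes tested were higher and 34.1% lower. In WT 20 were higher and 0 lower with it, with a median of 0.30, where 32.1% of all genes were higher and 33.8% lower. In OX the corrected antenna had 11 of 17 higher and 0 lower with a median of 0.56, and the corrected core 11 of 23 higher and 2 lower with a median of 0.24. In WT it was 8 of 17 higher for the antenna with a median of 0.33 and 12 of 23 for the core with a median of 0.29, and 0 lower in either. The PSA genes, whose transcripts are the shortest of the 4 classes at a median of 887.5 bases, had 3 called higher and 2 called lower in OX, against 10 higher uncorrected, and 5 called higher in WT, against 10 uncorrected. Of the LHCB genes 9 were called higher with the correction in OX, against 11 uncorrected, and 6 in WT, against 9 uncorrected. Without WT 0 h replicate 1, 25 genes were higher and 1, LHCB1.4, was lower in WT. Without the 3 libraries whose counts fell most steeply with length (replicate 3 of WT 12 h and the first replicates of OX 1 h and OX 6 h), 32 genes were higher in each genotype. The shares of all genes called in the fits that leave out libraries are not given here.

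LHCB1.1 (AT1G29920) had the largest rise of the 40 at 1 h in both genotypes. LHCB1.1 had 1839, 1791 and 2487 CPM in OX at 0 h, 9068, 6914 and 6611 at 1 h, 1059, 1088 and 990.3 at 6 h and 91.9, 93.1 and 96.8 at 12 h. The WT libraries had 1215, 2249 and 2550 CPM at 0 h, 6556, 6050 and 7512 at 1 h, 799, 944 and 1013 at 6 h and 95.7, 99.4 and 143 at 12 h. All libraries of 1 h lay above all libraries of 0 h in both genotypes. The log2 fold change at 1 h was 1.89 ± 0.21 in OX (edgeR adjusted p = 4.8e-08) and 1.74 ± 0.21 in WT (edgeR adjusted p = 1.4e-07), and with the length correction it was 1.63 in OX and 1.54 in WT. LHCB3, which forms trimers with LHCB1 and LHCB2, rose by 1.45 ± 0.18 in OX and 0.96 ± 0.18 in WT at 1 h (log2). Not every trimer gene rose: LHCB1.4 had 0.15 ± 0.25 in OX and -0.22 ± 0.25 in WT, and LHCB1.5 had 0.09 ± 0.20 in OX and 0.12 ± 0.20 in WT (log2 fold change at 1 h), none of them called. LHCB1.4 was called lower in WT without replicate 1 of 0 h, at -0.56.

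Among the core genes the rise at 1 h ranged widely. PSAN, a lumenal subunit at the plastocyanin side of photosystem I, rose by 1.41 ± 0.22 in OX and 1.08 ± 0.22 in WT, and PSBO2, the second gene for the manganese-stabilizing protein, by 1.19 ± 0.18 in OX and 0.97 ± 0.18 in WT (log2). PSBS (AT1G44575), the sensor of lumen acidity that switches on heat dissipation of excess light, rose by 1.18 ± 0.13 in OX (edgeR adjusted p = 6.2e-08) and 0.83 ± 0.13 in WT (edgeR adjusted p = 7.5e-06). PSBS had 392, 382 and 446 CPM in OX at 0 h, 1044, 850 and 860.4 at 1 h, 291, 273 and 254 at 6 h and 211, 236 and 209.6 at 12 h. WT libraries of PSBS had 344, 507 and 515 CPM at 0 h, 823, 695 and 913 at 1 h, 209, 229 and 253 at 6 h and 237, 262 and 273 at 12 h. The libraries of 1 h lay above those of 0 h in both genotypes, and OX and WT overlapped at 0 h and at 1 h, while OX lay wholly above WT at 6 h and wholly below it at 12 h. PSAD-1 and PSAD-2, which encode the stromal docking subunit for ferredoxin, had log2 fold changes of -0.01 ± 0.10 and -0.01 ± 0.14 in OX and 0.05 ± 0.10 and 0.25 ± 0.14 in WT at 1 h. The sign of the PSAD-2 value in OX depended on the processing, with 0.01 under DESeq2 scaling and -0.42 with the length correction, where it was called lower.

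By 6 h all 40 genes had fallen below 0 h in both genotypes, where 28.8% of all genes tested fell in OX and 28.1% in WT. The median log2 fold change was -1.004 in OX and -1.05 in WT, against -0.0010 and -0.01 over all genes tested. The LHCB median was -1.22 in OX and -1.39 in WT and the LHCA median -1.23 in OX and -1.42 in WT. The PSA median was -0.86 in OX and -0.80 in WT and the PSB median -0.92 in OX and -0.98 in WT. Libraries did not overlap with 0 h for 40 genes in OX and 37 in WT, where 31.5% and 30.3% of all genes lay wholly below. All 40 were called lower at 6 h with the length correction in both genotypes and, in WT, without replicate 1 of 0 h, while leaving out each library in turn gave 38 to 40 in OX and 39 to 40 in WT.

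LHCB2.4 (AT3G27690) fell furthest at 6 h. LHCB2.4 had 89.4, 72.8 and 96.0 CPM in OX at 0 h, 263, 183 and 202 at 1 h, 11.4, 10.6 and 6.40 at 6 h and 1.42, 1.46 and 1.99 at 12 h. The WT libraries had 46.2, 113 and 122 CPM at 0 h, 124, 84.7 and 164 at 1 h, 5.26, 6.76 and 8.51 at 6 h and 1.39, 1.67 and 1.62 at 12 h. In both genotypes the 6 h and 12 h libraries lay far below the earlier ones, and those of 12 h below those of 6 h. The log2 fold change at 6 h was -3.15 ± 0.30 in OX (edgeR adjusted p = 7.4e-09) and -3.81 ± 0.31 in WT (edgeR adjusted p = 6.5e-10). In the annotation used here 37.5% of the 75-base windows of the LHCB2.4 transcript also lie in the overlapping locus AT3G27700; how such reads were counted is not given in the sources used here, and its values are less certain for that. Among the core genes PSBO2 fell furthest at 6 h, at a log2 fold change of -1.60 ± 0.18 in OX and -1.91 ± 0.19 in WT.

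At 12 h all 40 genes had fallen below 0 h in both genotypes, the antenna further than the core. Of all genes tested 35.2% fell in OX and 37.4% in WT. The 12 h libraries lay wholly below those of 0 h for 40 of 40 in each genotype, as they did for 39.0% of all genes in OX and 37.6% in WT. The median over the 40 was -2.12 in OX and -1.91 in WT (log2), against -0.02 and -0.04 over all genes tested. The antenna median was -3.40 in OX and -3.27 in WT and the core median -1.89 in OX and -1.61 in WT. By class, LHCB had -4.32 in OX and -4.16 in WT, LHCA -3.25 in OX and -3.04 in WT, PSA -1.97 in OX and -1.74 in WT, and PSB -1.82 in OX and -1.46 in WT. In OX 13 of the 17 antenna genes fell further than any core gene, and 16 of the 23 core genes fell less than any antenna gene. In WT the counts were 12 of 17 and 13 of 23.

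**Figure D2:**
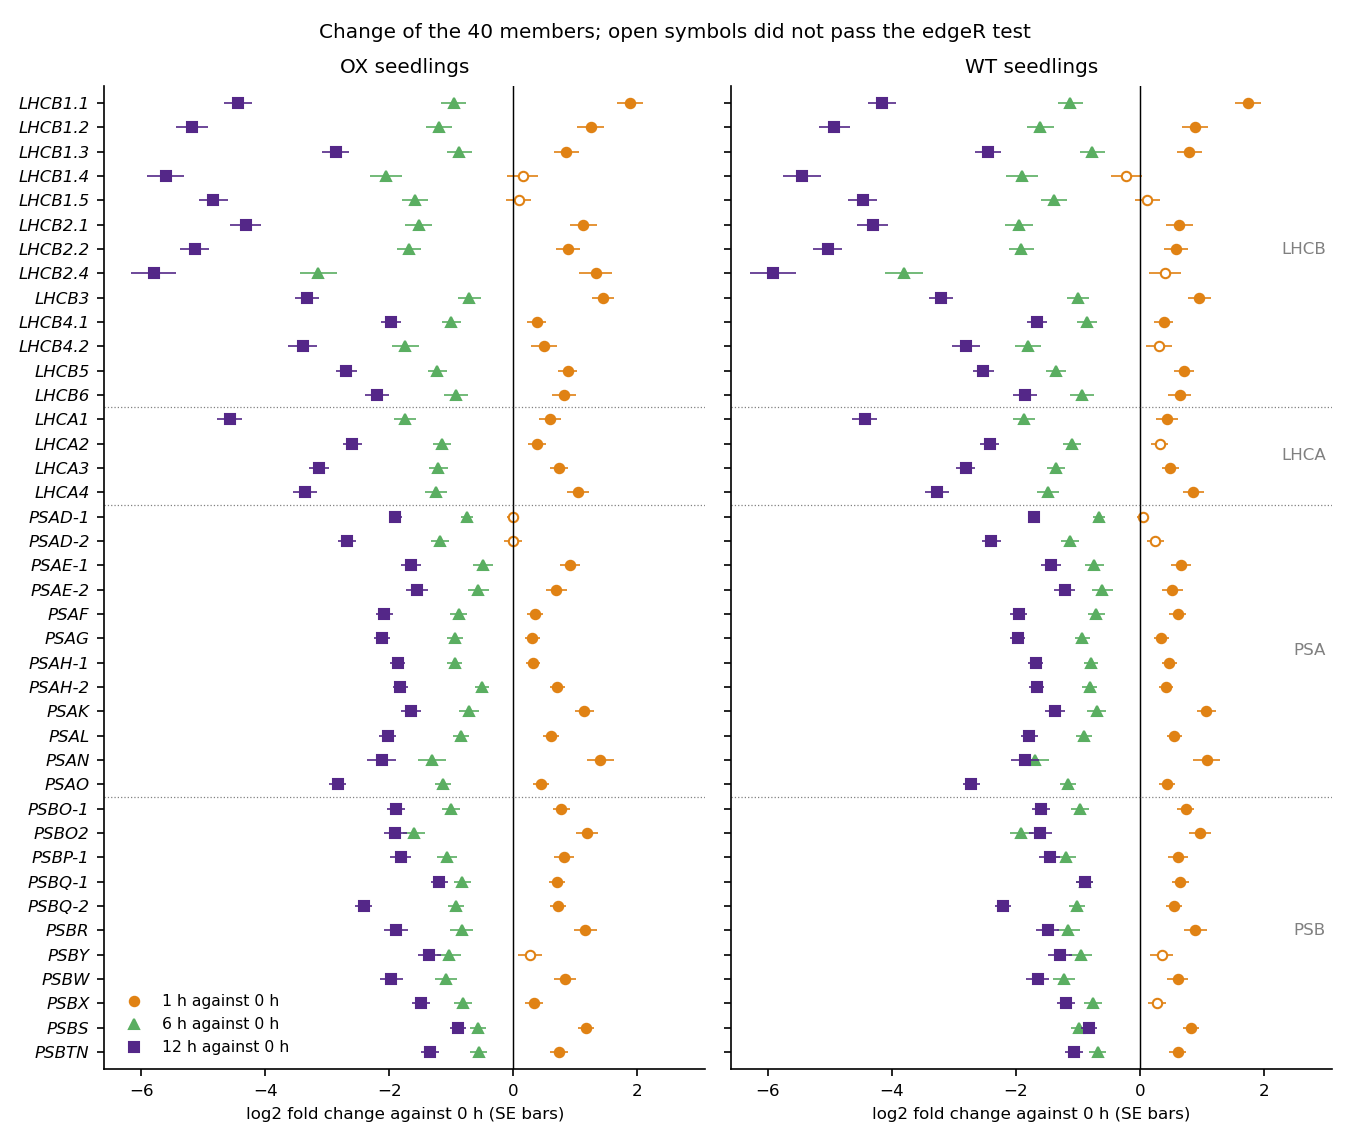
Log2 fold change of each of the 40 genes at 1, 6 and 12 h against 0 h in OX and WT seedlings (SE bars, open symbols did not pass the edgeR test, dotted lines divide LHCB, LHCA, PSA and PSB). At 12 h the LHCB genes spread from -5.80 to -1.97 in OX and from -5.92 to -1.65 in WT, while no core gene lies below -2.83 in OX or -2.72 in WT.

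The gap between antenna and core at 12 h remained with the length correction, where the medians were -4.42 for LHCB and -3.39 for LHCA in OX, with -2.25 for PSA and -1.95 for PSB. In WT the corrected medians were -4.36 and -3.25 for LHCB and LHCA, with -2.18 and -1.69 for PSA and PSB. Corrected in this way, 12 of 17 antenna genes in OX and 10 of 17 in WT fell further than any core gene. All 40 were called lower at 12 h in each genotype under every alternative that was run for that comparison.

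Within the antenna the trimer genes fell furthest by their median. The 9 genes of LHCB1, LHCB2 and LHCB3 had a median of -4.84 in OX and -4.47 in WT at 12 h, and the 4 genes of the minor LHCB4, LHCB5 and LHCB6 a median of -2.45 in OX and -2.19 in WT. LHCB2.4 and LHCB1.4 were the deepest, at -5.80 ± 0.36 and -5.61 ± 0.31 in OX and -5.92 ± 0.37 and -5.45 ± 0.30 in WT, so that LHCB1.4 was 48.9-fold lower at 12 h than at 0 h in OX and 43.7-fold lower in WT. LHCB1.4 had 1002, 1129 and 1131 CPM in OX at 0 h, 1329, 1147 and 1142 at 1 h, 254, 289 and 244 at 6 h and 22.7, 20.6 and 23.7 at 12 h. WT libraries of LHCB1.4 had 424, 1044 and 1307 CPM at 0 h, 751, 563 and 1072 at 1 h, 234, 232 and 278 at 6 h and 20.5, 18.8 and 24.6 at 12 h. The 12 h libraries of LHCB1.4 lay below all others in both genotypes. LHCB4.1, for the minor protein CP29, fell least of the antenna genes, at a log2 fold change of -1.97 ± 0.16 in OX and -1.65 ± 0.16 in WT.

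LHCB1.3 (AT1G29930), the most abundant of the 40, fell less than the other LHCB1 genes. LHCB1.3 had 7491, 7743 and 10020 CPM in OX at 0 h, 18210, 14030 and 13470 at 1 h, 4757, 4363 and 4710 at 6 h and 1138, 1110 and 1218 at 12 h. The WT libraries had 4605, 7406 and 9266 CPM at 0 h, 12110, 11100 and 13720 at 1 h, 3648, 4047 and 4814 at 6 h and 1024, 1167 and 1710 at 12 h. The 12 h libraries lay below all others, and WT 0 h replicate 1 was the lowest of the 0 h libraries. The log2 fold change at 12 h was -2.87 ± 0.21 in OX (edgeR adjusted p = 6.8e-11) and -2.45 ± 0.21 in WT (edgeR adjusted p = 7.2e-10). Its promoter, shown for the member with the highest level, is given with those of LHCB1.1 and LHCB2.4, the antenna genes with the largest rise and the deepest fall (chosen after their values were seen), as the 250 bases before the annotated start in RefSeq's TAIR10.1. Capitals mark matches to the motifs listed further on.
LHCB1.3, chr1:10477635-10477884, plus strand: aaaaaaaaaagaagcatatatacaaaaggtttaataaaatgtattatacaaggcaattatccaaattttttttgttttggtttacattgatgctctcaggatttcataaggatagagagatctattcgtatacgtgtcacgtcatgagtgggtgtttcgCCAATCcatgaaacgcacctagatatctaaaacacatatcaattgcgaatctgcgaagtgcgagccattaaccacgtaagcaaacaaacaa
LHCB1.1, chr1:10475970-10476219, minus strand: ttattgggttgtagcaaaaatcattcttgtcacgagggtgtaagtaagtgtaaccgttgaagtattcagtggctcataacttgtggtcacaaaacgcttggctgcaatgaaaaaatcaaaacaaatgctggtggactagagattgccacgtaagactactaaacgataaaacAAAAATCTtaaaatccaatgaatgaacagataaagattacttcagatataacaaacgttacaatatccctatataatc
LHCB2.4, chr3:10255656-10255905, plus strand: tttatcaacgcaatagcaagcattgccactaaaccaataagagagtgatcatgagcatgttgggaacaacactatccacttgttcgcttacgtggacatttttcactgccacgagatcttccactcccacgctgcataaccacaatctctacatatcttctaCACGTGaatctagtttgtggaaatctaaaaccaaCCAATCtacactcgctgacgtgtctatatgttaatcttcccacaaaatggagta

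Of the LHCA genes, LHCA4 (AT3G47470) had the highest level per kilobase by the mean over the 8 groups and LHCA2 (AT3G61470) the lowest, although LHCA1 stood lowest at 6 and 12 h and LHCA2 above LHCA4 at 12 h in both genotypes. LHCA4 had 2221, 2091 and 2563 CPM in OX at 0 h, 5503, 4355 and 4307 at 1 h, 1139, 886 and 874 at 6 h and 236, 200.1 and 234 at 12 h. WT libraries of LHCA4 had 1387, 2267 and 2582 CPM at 0 h, 3781, 3412 and 4160 at 1 h, 680.4, 713 and 839 at 6 h and 205, 180.1 and 259 at 12 h. LHCA4 was high at 1 h and lowest at 12 h in every library, with a log2 fold change at 12 h of -3.36 ± 0.19 in OX and -3.28 ± 0.19 in WT. LHCA2 had 1428, 1435 and 1817 CPM in OX at 0 h, 2115, 1965 and 2034 at 1 h, 711, 687 and 711 at 6 h and 253, 261 and 259.7 at 12 h. WT libraries of LHCA2 had 948, 1404 and 1653 CPM at 0 h, 1610, 1484 and 1904 at 1 h, 580.3, 598 and 694 at 6 h and 220.3, 251 and 275 at 12 h. LHCA2 fell the least of the 4, at a log2 fold change of -2.60 ± 0.15 in OX and -2.42 ± 0.15 in WT at 12 h. Its rise at 1 h was called in OX at 0.39 ± 0.14 and not in WT at 0.32 ± 0.14, and neither was called with the length correction. LHCA1, which pairs with LHCA4 in the photosystem I belt, fell further than its partner, at a log2 fold change of -4.58 ± 0.21 in OX and -4.44 ± 0.20 in WT at 12 h. The LHCA4 promoter is shown because it holds more of the searched motifs than the other promoters printed.
LHCA4, chr3:17495034-17495283, minus strand: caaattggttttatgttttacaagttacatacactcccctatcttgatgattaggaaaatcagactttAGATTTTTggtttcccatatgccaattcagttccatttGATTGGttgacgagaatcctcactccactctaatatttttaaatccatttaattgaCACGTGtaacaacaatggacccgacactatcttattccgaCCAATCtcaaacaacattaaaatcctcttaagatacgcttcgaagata

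In photosystem I, PSAL (AT4G12800) had the highest mean level per kilobase and PSAD-2 (AT1G03130) the lowest in each of the 8 groups. PSAL had 1394, 1488 and 1782 CPM in OX at 0 h, 2522, 2265 and 2290 at 1 h, 912, 831 and 862 at 6 h and 367, 399 and 376 at 12 h. WT libraries of PSAL had 1119, 1475 and 1692 CPM at 0 h, 2058, 1919 and 2338 at 1 h, 714, 708 and 886 at 6 h and 369, 418 and 459.9 at 12 h. PSAL fell at 12 h, at a log2 fold change of -2.03 ± 0.13 in OX and -1.78 ± 0.13 in WT, near the PSA median. PSAD-2 had 257, 263 and 326 CPM in OX at 0 h, 267, 284 and 291 at 1 h, 109, 137 and 126 at 6 h and 43.1, 44.2 and 44.5 at 12 h. The WT libraries had 187, 221 and 272 CPM at 0 h, 262, 226 and 324 at 1 h, 88.5, 105 and 119 at 6 h and 38.0, 43.3 and 48.5 at 12 h. PSAD-2 did not separate 1 h from 0 h in either genotype and then fell, at a log2 fold change of -2.68 ± 0.15 in OX and -2.40 ± 0.15 in WT at 12 h. PSAO, a small subunit on the side of photosystem I that contacts mobile trimers, fell furthest of the core genes, at a log2 fold change of -2.83 ± 0.14 in OX and -2.72 ± 0.14 in WT. The PSAL promoter is shown beside the antenna promoters because it holds none of the searched motifs.
PSAL, chr4:7521007-7521256, plus strand: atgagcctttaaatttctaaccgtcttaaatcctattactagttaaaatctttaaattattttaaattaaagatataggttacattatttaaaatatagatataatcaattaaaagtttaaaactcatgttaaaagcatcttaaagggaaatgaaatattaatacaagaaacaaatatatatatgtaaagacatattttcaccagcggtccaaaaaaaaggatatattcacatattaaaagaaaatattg

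In photosystem II, PSBR (AT1G79040) had the highest level per kilobase by the mean over the 8 groups and PSBY (AT1G67740) the lowest, although PSBO2 stood below PSBY at 0, 6 and 12 h in both genotypes. PSBR had 1602, 1609 and 1916 CPM in OX at 0 h, 4932, 3336 and 3220 at 1 h, 1163, 909 and 801 at 6 h and 458, 469 and 451 at 12 h. The WT libraries had 1117, 1734 and 2009 CPM at 0 h, 3032, 2756 and 3222 at 1 h, 620, 694 and 868 at 6 h and 517, 552 and 664 at 12 h. PSBR rose at 1 h by 1.16 ± 0.19 in OX and 0.89 ± 0.19 in WT and fell at 12 h, at a log2 fold change of -1.90 ± 0.19 in OX and -1.49 ± 0.19 in WT. PSBY had 293, 409 and 420.2 CPM in OX at 0 h, 412, 480.1 and 457 at 1 h, 131, 221 and 195 at 6 h and 133, 170 and 135 at 12 h. WT libraries of PSBY had 251, 436 and 445 CPM at 0 h, 453, 445 and 546 at 1 h, 187, 196 and 201 at 6 h and 136, 169 and 160.4 at 12 h. PSBY, a small membrane protein near cytochrome b559, was not called at 1 h, at 0.27 ± 0.19 in OX and 0.35 ± 0.19 in WT, and fell at 12 h, at a log2 fold change of -1.35 ± 0.19 in OX and -1.28 ± 0.19 in WT. PSBS fell least of all 40 genes at 12 h, at a log2 fold change of -0.89 ± 0.13 in OX (edgeR adjusted p = 2.4e-06) and -0.82 ± 0.13 in WT (edgeR adjusted p = 6.7e-06), and its libraries of 12 h and 6 h overlapped in WT. The PSBR promoter, of the core gene with the highest level at 12 h, also holds none.
PSBR, chr1:29735702-29735951, plus strand: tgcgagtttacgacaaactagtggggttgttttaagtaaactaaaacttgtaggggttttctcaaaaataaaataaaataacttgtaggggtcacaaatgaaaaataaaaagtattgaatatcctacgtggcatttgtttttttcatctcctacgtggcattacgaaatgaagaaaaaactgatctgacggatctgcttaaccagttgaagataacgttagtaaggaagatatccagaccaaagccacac

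**Figure D3:**
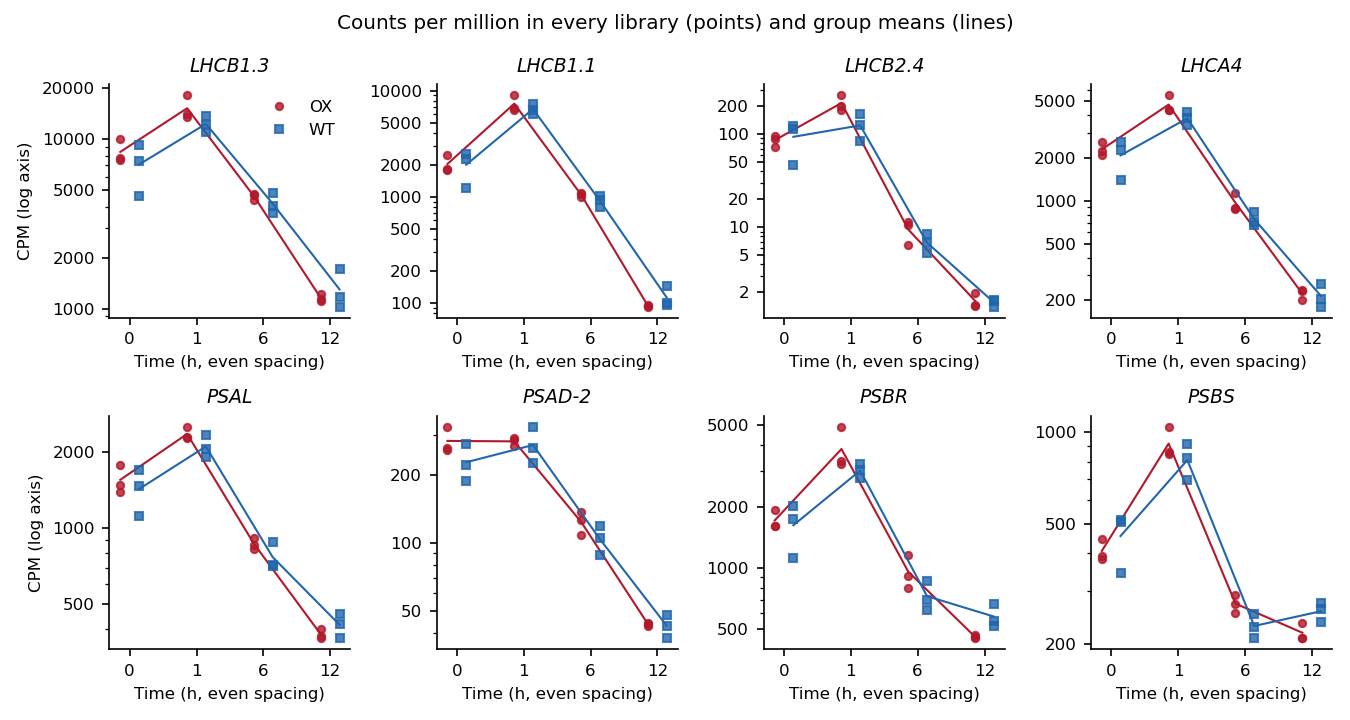
CPM of 8 genes in every library of OX and WT at 0, 1, 6 and 12 h (log axes that differ between panels, times evenly spaced, lines join group means). LHCB2.4 lies between 1.39 and 1.99 CPM at 12 h, and PSBS lies between 209.6 and 273.2 CPM at 12 h.

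Several proteins are encoded by more than one member, and in several of these families the shares of the paralogs changed over time. LHCB1.3 supplied 47.8 ± 0.61% of LHCB1 CPM in OX at 0 h, 45.6 ± 0.67% at 1 h, 56.5 ± 1.7% at 6 h and 78.8 ± 0.65% at 12 h, and in WT 46.0 ± 2.2%, 44.7 ± 1.2%, 56.8 ± 0.70% and 78.3 ± 2.1% (SD, n = 3). LHCB1.1 took 11.6 ± 0.55% of LHCB1 CPM in OX at 0 h, 22.5 ± 0.51% at 1 h, 12.8 ± 0.73% at 6 h and 6.42 ± 0.23% at 12 h, and in WT 12.9 ± 0.45%, 24.3 ± 0.59%, 12.5 ± 0.56% and 6.84 ± 0.23% (SD, n = 3). The LHCB1.1 share was thus highest at 1 h and the LHCB1.3 share highest at 12 h in both genotypes. LHCB1.2, LHCB1.1 and LHCB1.3 are neighbours on chromosome 1 with 0 loci between them, 1153 and 1915 bases apart, and LHCB1.1 and LHCB1.3 are read in opposite directions. LHCB1.5 and LHCB1.4 are neighbours on chromosome 2, 1038 bases apart and also read in opposite directions. Windows of 75 bases shared with another of the 40 genes made up 10.4% of LHCB1.1, 7.53% of LHCB1.3, 3.66% of LHCB1.2, 7.27% of LHCB1.4 and 9.27% of LHCB1.5, and how the counting treated reads from them is not given in the sources used here. LHCB1.5 also overlaps other annotated loci along its whole transcript.

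Outside LHCB1, the order of paralogs changed in PSBQ, a lumenal protein of oxygen evolution, whose 2 genes share no 75-base window. PSBQ-1 supplied 39.4 ± 0.55% of PSBQ CPM in OX at 0 h, 39.2 ± 0.48% at 1 h, 41.1 ± 1.4% at 6 h and 60.3 ± 0.62% at 12 h, and in WT 40.1 ± 0.71%, 41.9 ± 2.2%, 42.2 ± 0.41% and 62.6 ± 0.45% (SD, n = 3). PSBQ-1 had 489, 484 and 578 CPM in OX at 0 h, 978, 775 and 772 at 1 h, 327, 251 and 297 at 6 h and 221, 226 and 230.3 at 12 h. WT libraries of PSBQ-1 had 364, 487 and 553 CPM at 0 h, 739, 665 and 798 at 1 h, 227, 249.5 and 282 at 6 h and 228, 243 and 288 at 12 h. The 12 h libraries of PSBQ-1 lay below all others in OX and overlapped those of 6 h in WT. PSBQ-2 had 755, 761 and 868 CPM in OX at 0 h, 1554, 1192 and 1181 at 1 h, 479.8, 377 and 399 at 6 h and 150.2, 148 and 149 at 12 h. The WT libraries had 561, 724 and 803 CPM at 0 h, 1055, 991 and 1003 at 1 h, 313, 335 and 389 at 6 h and 138, 146 and 168 at 12 h. In CPM, PSBQ-1 was below PSBQ-2 in every library of 0, 1 and 6 h and above it in every library of 12 h, and the group means per kilobase stood in the same order. PSBQ-1 fell, at a log2 fold change of -1.19 ± 0.14 in OX and -0.89 ± 0.14 in WT at 12 h, and PSBQ-2 fell, at -2.42 ± 0.13 in OX and -2.21 ± 0.13 in WT. LHCB4.1 supplied 85.4 ± 0.46% of LHCB4 CPM at 12 h against 68.5 ± 1.3% at 0 h in OX, and 84.1 ± 1.3% at 12 h against 70.7 ± 1.6% at 0 h in WT (SD, n = 3). PSAD-1 supplied 83.1 ± 0.55% of PSAD CPM at 12 h against 74.2 ± 1.0% at 0 h in OX, and 83.9 ± 0.95% at 12 h against 76.5 ± 1.8% at 0 h in WT (SD, n = 3). The PSAE genes kept closer shares, with PSAE-1 at 69.3 ± 0.82% at 12 h and 70.7 ± 0.45% at 0 h in OX, and 68.5 ± 0.76% at 12 h and 71.8 ± 0.31% at 0 h in WT (SD, n = 3). PSAH-1 supplied 51.7 ± 1.6% of PSAH CPM in OX at 0 h, 45.1 ± 4.7% at 1 h, 44.2 ± 3.7% at 6 h and 51.1 ± 0.31% at 12 h (SD, n = 3), and in WT its group means lay between 49.9 and 50.9% at all 4 times, so the PSAH shares differed little there. The lowest OX shares at 1 and 6 h, 39.8 and 40.3%, belonged to the first replicates, which are among the 3 steep libraries. The PSAH-1 transcript has 1300 bases and that of PSAH-2 702, and PSAH-1 shares 48.1% of its windows with an overlapping locus. PSBO2 had 9.40 ± 0.93% of PSBO CPM at 6 h against 13.5 ± 0.65% at 0 h in OX and 8.05 ± 0.23% at 6 h against 14.2 ± 1.4% at 0 h in WT, and was back at 13.5 ± 0.14% in OX and 14.4 ± 0.70% in WT at 12 h (SD, n = 3).

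**Figure D4:**
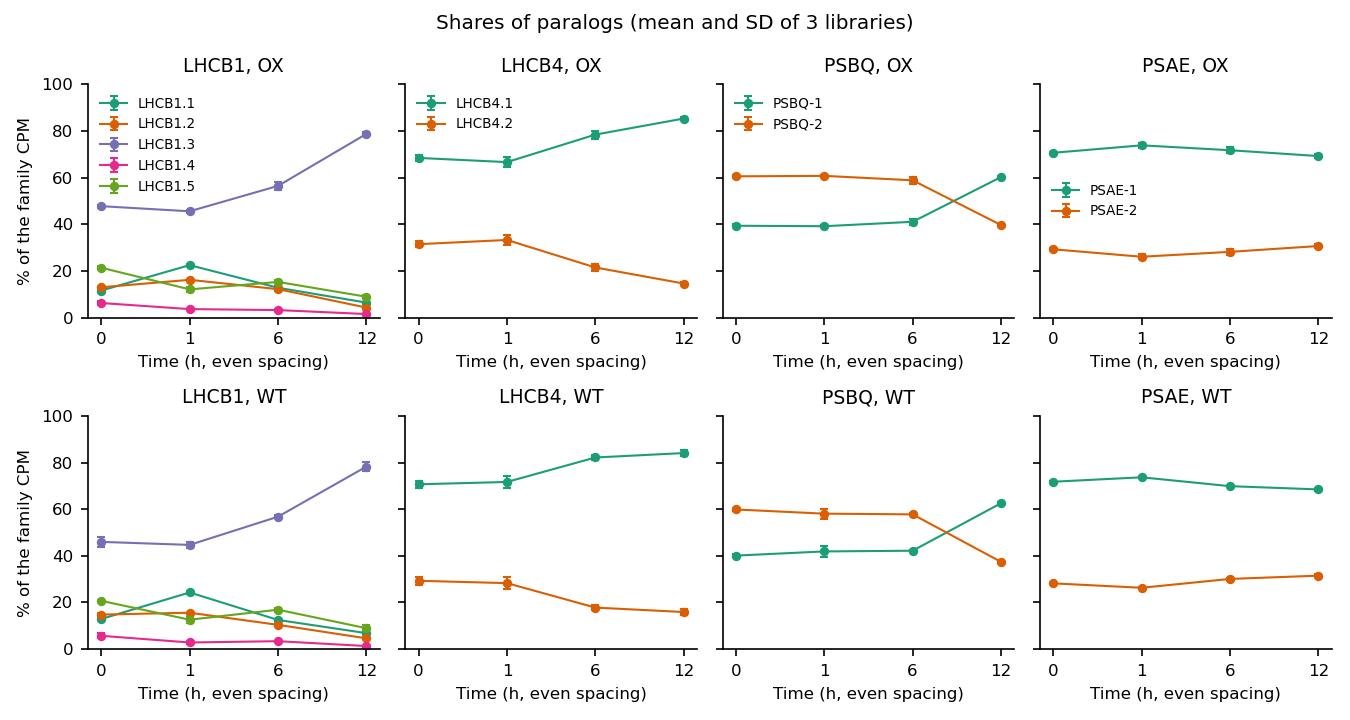
Share of each paralog in the summed CPM of its family over time, for LHCB1, LHCB4, PSBQ and PSAE, with OX above and WT below (mean and SD of 3 libraries, times evenly spaced). The lines of PSBQ-1 and PSBQ-2 cross between 6 h and 12 h in both genotypes, at 60.3% PSBQ-1 in OX and 62.6% in WT at 12 h.

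The genotypes were then compared at each time. In the fit without a replicate block, edgeR called none of the 40 genes between OX and WT at 0, 1, 6 or 12 h, where 14.6, 5.7, 1.52 and 1.65% of all genes tested were called. DESeq2 also called 0 of the 40 at each time, where it called 3302, 1483, 574 and 749 of all 21015 genes. With the replicate number as a block, edgeR called PSAD-2 and PSAF at 0 h and LHCB4.2 at 1 h, all higher in OX. The shares of all genes called with the block are not given here, so these calls are not read as particular to the 40 genes. Values that follow are from the fit without the block unless stated. At an unadjusted p under 0.05, OX was higher for 1 gene at 0 h, 10 at 1 h, 8 at 6 h and 0 at 12 h, where 15.0, 9.51, 7.4 and 11.2% of all genes were higher, and OX was lower for 0 at every time, where 12.0, 11.9, 6.85 and 9.58% were. The smallest edgeR adjusted p among the 40 was 0.15, 0.077, 0.15 and 0.3 at the 4 times. The median log2 fold change of OX against WT was 0.14 at 0 h, 0.30 at 1 h, 0.23 at 6 h and -0.12 at 12 h, against 0.03, -0.01, -0.0027 and 0.01 over all genes tested. With the length correction these medians were 0.12, 0.20, 0.17 and -0.015, and without the 3 steep libraries 0.14, 0.17, 0.17 and -0.025.

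OX had the higher fitted level for 35 of the 40 genes at 0 h, 38 at 1 h, 38 at 6 h and 6 at 12 h. Of all 21015 genes tested it had the higher level for 11853, 10245, 10354 and 10759 at these times. The 0 h counts include the low WT replicate 1, where the 40 genes took 3.67% of counts, below every OX library. WT replicates 2 and 3, at 5.71 and 6.47%, lay above OX replicates 1 and 2, at 5.27 and 5.29%. OX replicate 3 had 6.34%. A higher level of OX at 0 h is therefore not shown without WT replicate 1. The lower level at 12 h depended on the processing: the core median there was 0.017 with the length correction and the antenna median 0.029 without the 3 steep libraries. At 0 h the libraries of the genotypes overlapped for all 40, where all OX libraries lay above all WT libraries for 19.6% of all genes and below them for 12.6%. At 1 h OX lay wholly above WT for 17 of the 40, where 11.0% of all genes did, and wholly below for 0, where 14.3% did. At 6 h it lay wholly above for 6, where 8.38% did, and below for 0, where 9.0% did. At 12 h it lay wholly above for 0, where 18.4% did, and below for 6, where 16.1% did. Across the 24 libraries the log2 CPM of the 40 genes moved together, with a median r of 0.97 over 780 gene pairs and a range from 0.737 to 0.999. This r includes the shared change over time, and dependence between the genes within a time was not tested. The members are therefore not taken as separate observations of a genotype difference.

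The largest differences between genotypes were in the antenna at 1 h. LHCB2.4 had 263, 183.3 and 202.1 CPM in OX at 1 h, against 124.3, 84.7 and 164 CPM in WT, and the libraries did not overlap. Its log2 fold change was 0.80 ± 0.26 (edgeR adjusted p = 0.077). LHCB1.4 followed at 0.60 ± 0.25, with 1329, 1147 and 1142 CPM in OX against 750.9, 562.9 and 1072 CPM in WT, and the highest WT library was just under the lowest OX library. LHCB4.2 had 0.52 ± 0.21 and LHCB3 0.51 ± 0.18 at 1 h. At 6 h the largest value was that of LHCB2.4 at 0.54 ± 0.31, and the smallest adjusted p that of PSAH-2, a photosystem I subunit at the trimer docking face that shares 15.9% of its windows with an overlapping locus, at 0.36 ± 0.12 (edgeR adjusted p = 0.15). At 0 h PSAD-2 had 0.31 ± 0.14 (edgeR adjusted p = 0.15), and at 12 h PSBR had -0.33 ± 0.19 and PSBS -0.23 ± 0.13. PSAD-2 and PSAF were called higher in OX at 0 h without WT 0 h replicate 3, and LHCB2.4 higher in OX at 1 h without WT 1 h replicate 3. With the replicate number as a block, LHCB4.2 was called higher in OX at 1 h (edgeR adjusted p = 0.044). The shares of all genes called in these alternative fits are not given here.

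**Figure D5:**
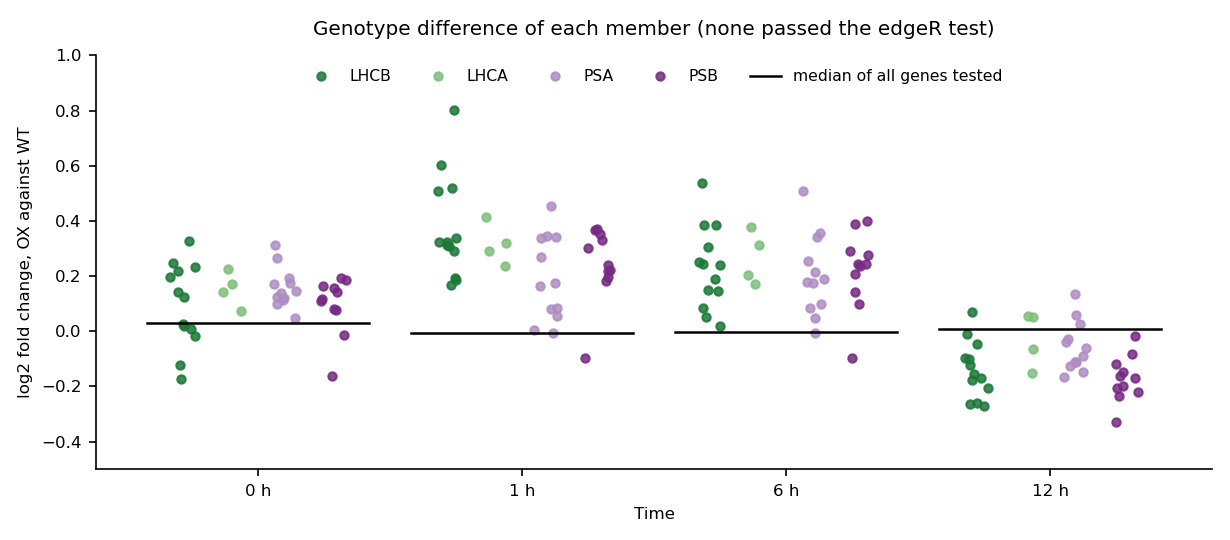
Log2 fold change of OX against WT for each of the 40 genes at 0, 1, 6 and 12 h, by class, with the median of all genes tested as a line. None passed the edgeR test in the fit without a replicate block. The values lie mostly above the line at 1 h and 6 h and mostly below it at 12 h, where the core median turned positive with the length correction and the antenna median without the 3 steep libraries.

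The difference between genotypes in the change from 0 h was tested directly. By edgeR 0 of the 40 were called for the 1, 6 or 12 h response, where 12.7, 6.34 and 5.52% of all genes were called. DESeq2 called 0 of the 40 for each, where it called 3012, 1667 and 1470 of all 21015 genes. At an unadjusted p under 0.05 the response was more positive in OX for 1, 1 and 0 genes, where 11.8, 9.32 and 9.42% of all genes were, and more negative for 0, where 15.2, 10.7 and 10.7% were. The median difference, OX minus WT, was 0.17 at 1 h, 0.08 at 6 h and -0.25 at 12 h, against 0.093, 0.044 and -0.12 with the length correction and 0.041, 0.014 and -0.13 without the 3 steep libraries. All these medians share WT 0 h with its low replicate 1. Their size without that library is not given here, so the 12 h shift is not shown to hold without it. Without WT 0 h replicate 1, the low library, 5 genes had a more positive 1 h response in OX than in WT, LHCB1.4, LHCB2.1, LHCB2.4, LHCB3 and PSBS, by 0.73, 0.79, 1.27, 0.73 and 0.53, and 2 a more positive 6 h response, LHCB2.4 and PSBS, by 1.00 and 0.58 (log2). The shares of all genes called in that fit are not given here, so these counts are not read as particular to the 40 genes.

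The 250 bases before each start were searched on both strands for short motifs known from light and clock regulation of these genes. CCAATC, the letters of sites recognised by the GLK activators of chloroplast genes, occurred in 10 of 17 antenna promoters (58.8%) and 1 of 23 core promoters (4.35%), against 10.4% of 21329 promoters of counted loci. The antenna genes with CCAATC were LHCB1.3, LHCB1.5, LHCB2.1, LHCB2.2, LHCB2.4, LHCB4.1, LHCB4.2, LHCA1, LHCA3 and LHCA4, and the core gene was PSBQ-2. In LHCB2.1, LHCB2.2 and LHCB2.4 the match began 59, 53 and 54 bases before the start. LHCA4 held 2 matches, 144 and 48 bases before the start, with the first on the opposite strand and therefore printed as GATTGG. The median log2 fold change at 12 h was -3.86 in OX and -3.79 in WT for the 10 antenna genes with the letters, and -3.33 in OX and -3.21 in WT for the 7 without. LHCB1.4, next to LHCB2.4 in depth of fall, is among those without.

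The G-box CACGTG, which reads the same on both strands and binds bZIP and bHLH factors such as HY5 and PIFs, occurred in 22.5% of the 40 promoters, against 7.17% of all, with 23.5% in the antenna and 21.7% in the core. The I-box GATAAG occurred in 22.5%, against 12.3%. The CCA1 site AAAAATCT occurred in 12.5%, against 6.61%, and the variant AACAATCT in 2.5%, against 1.74%. The evening element AAAATATCT occurred in 0 of the 40, against 2.49%, and TATAAA in 40% against 46.6%. The letters overlap in part, since AACAATCT shares CAATC with CCAATC. The LHCB1.1 promoter holds AAAAATCT 78 bases before the start, and the LHCB2.4 promoter holds CACGTG 88 bases before it.

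Most genes listed for partners of the photosystems fell at 12 h too. The counts of the lists stand beside 34.9% of all genes tested that rose and 35.2% that fell in OX at 12 h, and 35.2% that rose and 37.4% that fell in WT. Of 14 genes for electron transport and ATP synthase, 12 fell and 1 rose in OX and 11 fell and 1 rose in WT, with medians of -0.95 and -0.81. PETC, the Rieske protein of the cytochrome complex, fell, at a log2 fold change of -1.42 in OX and -1.29 in WT, and FD1, a ferredoxin, rose by 0.62 in OX and 0.79 in WT, although no gene of this list was called higher at 12 h with the length correction. Of 15 genes of chlorophyll synthesis, 15 fell in both genotypes, with medians of -1.18 in OX and -0.78 in WT. PORA and CAO, for light-dependent protochlorophyllide reduction and for chlorophyll b, fell, at a log2 fold change of -3.90 and -1.74 in OX and -4.19 and -1.76 in WT. Of 7 genes that insert or phosphorylate antenna proteins, 7 fell at 12 h in both genotypes, with medians of -0.87 in OX and -0.86 in WT, among them the membrane insertase gene ALB3 at -0.92 in OX and -0.86 in WT.

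Chlorophyll breakdown genes did not move as a block. Of 8, 2 rose and 5 fell at 12 h in OX and 3 rose and 4 fell in WT, with medians of -0.29 and -0.20, where 34.9% of all genes rose and 35.2% fell in OX and 35.2% rose and 37.4% fell in WT. Among them were NOL, a chlorophyll b reductase gene, at -1.13 in OX and -1.05 in WT and NYE2/SGR2, a relative of the magnesium dechelatase, at 1.07 in OX and 0.86 in WT. Among 13 rarer LHC and photosystem II isoforms and LHC-like stress proteins, 3 rose and 8 fell in OX and 3 rose and 7 fell in WT at 12 h, with medians of -0.72 and -0.57. The 3 that rose were ELIP1 and ELIP2, early light-induced proteins of photoprotection, at 2.88 and 2.31 in OX and 1.97 and 2.09 in WT, and LHCB4.3, the light-stress form of CP29, at 0.75 in OX and 0.90 in WT. LHCB4.3 thus rose while LHCB4.1 and LHCB4.2 fell, and it stood at 16.96 ± 0.684 CPM at 12 h against 10.2 ± 1.22 CPM at 0 h in OX and at 15.1 ± 1.23 CPM at 12 h against 8.10 ± 0.523 CPM at 0 h in WT (SD, n = 3).

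Among 10 regulators, 4 rose and 4 fell at 12 h in OX and 4 rose and 5 fell in WT, with medians of 0.09 and -0.36, where 34.9% of all genes rose and 35.2% fell in OX and 35.2% rose and 37.4% fell in WT. GLK1, an activator of LHC and chlorophyll genes, rose by 0.95 in OX and 0.48 in WT at 12 h, and HY5, a light-signalling activator, by 2.14 in OX and 1.77 in WT, while the plastid sigma factor genes SIG1 and SIG6 fell, at a log2 fold change of -1.12 and -1.23 in OX and -1.14 and -0.99 in WT. At 0 h 1 of the 10 was higher in OX than in WT and 3 were lower, where 14.6% of all genes were called. GLK1 and GLK2 were lower in OX at 0 h, at log2 fold changes of -0.43 and -0.70, and neither was called at later times.

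Clock genes, which mark time of day, also changed after 0 h, in both directions. At 12 h, 2 of 9 rose and 7 fell in OX and 2 rose and 6 fell in WT, with medians of -2.38 and -2.30, where 35.2% of all genes fell in OX and 37.4% in WT. PRR7 and GI, clock genes of the day, fell, at a log2 fold change of -4.28 and -2.38 in OX and -4.15 and -2.30 in WT at 12 h. At 1 h, 3 of the 9 rose and 6 fell in OX and 3 rose and 5 fell in WT, with medians of -0.93 and -0.34. Of all genes tested 35.2% rose and 33.7% fell in OX at 1 h, and 35.2% rose and 32.6% fell in WT. LHY, a morning gene, was among those that rose at 1 h, by 3.67 in OX and 2.90 in WT. At 0 h 3 of the 9 were higher in OX than in WT and 3 were lower, with a median of -0.02, where 14.6% of all genes were called. The morning genes LHY, CCA1 and PRR9 were the lower ones, at log2 fold changes of -1.02, -0.94 and -1.69. Among the higher was TOC1, an evening gene, by 0.54. Of 12 root markers, 1 rose and 8 fell at 12 h in OX and 2 rose and 9 fell in WT, with medians of -0.70 and -0.90, where 35.2% of all genes fell in OX and 37.4% in WT, and none had a group mean of 0. Their summed CPM ran from 1397 to 1576 in OX at 0 h, 1961 to 2223 at 1 h, 1346 to 1547 at 6 h and 1431 to 1468 at 12 h, and in WT from 1657 to 2225, 1534 to 1723, 1042 to 1228 and 1284 to 1335, most of it from PYK10, a beta-glucosidase gene of roots. The part of time of day and of tissue makeup in the change of the 40 genes was not tested.

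The authors' deposited FPKM values, 1 per group, gave the same sign as the counts for 40 of 40 genes in each of the 6 comparisons with 0 h. In the authors' deposited table the log2 ratios differed from the fitted changes by -0.0388 to 0.0762 over these comparisons.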

How the data were processed

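RNA was measured by stranded, poly(A)-selected sequencing of whole seedlings, 24 libraries in 8 groups of 3, grouped by the labels. The authors deposited raw counts per locus, with no normalization, and FPKM per group. The submitters' processing notes name TopHat2 2.0.8, Cufflinks 2.1.1, Cuffdiff, DESeq2 and TAIR10. Which counter and strand setting were used, and how reads matching several loci were treated, is not given in the sources used here. From the counts, 1 edgeR 4.0.16 quasi-likelihood fit (R 4.3.3, TMM scaling, filterByExpr with a minimum count of 10) over 24 libraries with 8 group means gave 13 comparisons, adjusted over 21015 genes by Benjamini-Hochberg at 0.05. The fit was also run on simulated data, with pass limits that were loosened after the output was seen. Few genes changed there, in a single group, without length trends or an uneven library, so that run does not cover these features of the data. CPM per kb used the longest annotated transcript of TAIR10.1. Alternatives were DESeq2 1.42.0, its size factors, no filter, fits of only the groups compared, a replicate block, a length correction (a smooth trend per library, span 0.3), and leaving out libraries. Of the groups compared, only OX and WT at 1 h had deviations from the group means that correlated above 0.1 in all 3 same-number pairs (0.223, 0.13 and 0.125). This is a hint of pairing from the data and not from the labels. The main fit did not pair libraries, and calls with the replicate block are given beside it. The members and lists were chosen with earlier results of these data known. Values in every library are given for the genes of highest and lowest CPM per kb in each class and for the largest called changes of each comparison. Other genes, those of the other lists included, were in part named after their values were seen.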

Additional observations from a re-analysis of the deposited data

How the results depend on the processing

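The 40 genes were called lower at 12 h in each genotype under every alternative run. Leaving out each replicate in turn gave 28 to 35 called at 1 h in OX, 26 to 36 at 1 h in WT, 38 to 40 at 6 h in OX and 39 to 40 at 6 h in WT, and for OX against WT 0 to 2 at 0 h and 0 to 1 at 1 h. For the difference in response it gave 0 to 5 at 1 h and 0 to 2 at 6 h, the highest values without WT 0 h replicate 1. Shares of all genes called without single replicates or with a replicate block are not given here. The length correction gave 20 called at 1 h in WT. The cause was not tested. With the replicate number as a block, 2 genes were called between OX and WT at 0 h (PSAD-2 and PSAF) and 1 at 1 h (LHCB4.2), and the block changed no other count between genotypes and gave 35 at 1 h in WT. Over all 84 same-number pairs the correlation of deviations ran from -0.341 to 0.544, with 33 over 0.1. Of the 24 libraries, 15 correlated best with their own number, and replicate 3 was the shallowest library of each group. Whether the replicate number marks a shared batch was not tested.

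Counting each named value once under each alternative, 16 changed sign, all of genes not called at 1 h. With the length correction LHCB1.4, LHCB1.5 and PSBY in OX had -0.11, -0.29 and -0.028, and LHCB1.5 and PSAD-2 in WT had -0.17 and -0.063. PSAD-2 in OX had 0.0052 with DESeq2, 0.0055 with its size factors, 0.017 without the filter, 0.0023 with the replicate block and 0.053 without the 3 steep libraries, with a range of -0.045 to 0.13 when single replicates were left out. Leaving out single replicates, LHCB1.4 in WT ran from -0.56 to 0.12 and LHCB1.5 in WT from -0.14 to 0.37. Of the other values of named genes, counted in the same way, 1105 kept direction and side of the threshold, 19 passed it only under an alternative and 4 lost it. Differences smaller than the spread of 3 libraries cannot be resolved here.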
